A study of Rattus norvegicus with 12 samples.

Results

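The genes described here are Fads1, Fads2, Elovl5 and Elovl2, the desaturases and elongases that build long polyunsaturated fatty acids. They were chosen by symbol: a probe set was taken if its platform annotation listed exactly 1 gene symbol and that symbol was Fads1, Fads2, Elovl5 or Elovl2. Each gene had 1 such probe set, so 4 probe sets of 15310 with a single symbol, and 4 genes of 14506, are described. No probe set with several symbols included any of the 4.

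The samples were livers of 12 male Sprague-Dawley rats of the diet-induced obese strain, a stock that gains excess weight on rich food, with 4 livers per diet. All rats ate a high fat, high sucrose diet freely for 8 weeks, starting at 12 weeks of age, and were 20 weeks old at sampling. Every diet held 4.6 kcal/g and took 10% of its energy from protein. In the leucine diet that protein was casein (7.1% of energy) with added leucine (2.9%), in the dairy diet it was skim milk powder, and in the casein diet, the control, it was casein alone. Because all the rats were obese and ate the same rich background, the comparisons say nothing about lean animals or standard chow. Each liver's RNA was run on its own array (Affymetrix Rat Gene 1.0 ST). The values are log2 signals as deposited, and differences below are differences of log2 signals.

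Mammals obtain linoleic and alpha-linolenic acid from food and convert them, mainly in the liver, into longer and more unsaturated acids such as arachidonic, eicosapentaenoic and docosahexaenoic acid. Fads2 makes the first desaturation, Elovl5 adds a pair of carbons to its products, Fads1 makes the next desaturation, and Elovl2 lengthens the products further on the way to docosahexaenoic acid. These enzymes sit in the endoplasmic reticulum, and in rodent liver their transcription is known to respond to the sterol regulatory element-binding protein SREBP-1 and to the fatty acid receptor PPAR-alpha, and to fall when polyunsaturated fat is plentiful. Fads1 and Fads2 are neighbouring protein-coding genes on rat chromosome 1, on opposite strands, with Fads3 beyond Fads2 and Fen1 beyond Fads1. Elovl5 lies on chromosome 8 between Gclc and Gcm1, and Elovl2 on chromosome 17 between Smim13l and Sycp2l.

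The promoters of the 4 genes are shown because their RNA levels moved together from liver to liver, as described below. Each is the RefSeq window of 300 bases (250 before and 50 after the annotated start) on build GRCr8, written along the gene's own strand, at chr1:216252442-216252741 (plus strand) for Fads1, chr1:216171984-216172283 (minus strand) for Fads2, chr8:87670914-87671213 (plus strand) for Elovl5 and chr17:23750100-23750399 (plus strand) for Elovl2, the first of 2 entries for that gene. Capitals mark matches, on either strand, to the motifs searched: CCAAT, the E-box CACGTG, the sterol regulatory element TCACNCCAC, the cyclic AMP response element TGACGTCA, the GC box GGGCGG, and direct repeats of AGGTCA with 1 base (direct repeat 1) or 4 bases (direct repeat 4) between the copies.
Fads1: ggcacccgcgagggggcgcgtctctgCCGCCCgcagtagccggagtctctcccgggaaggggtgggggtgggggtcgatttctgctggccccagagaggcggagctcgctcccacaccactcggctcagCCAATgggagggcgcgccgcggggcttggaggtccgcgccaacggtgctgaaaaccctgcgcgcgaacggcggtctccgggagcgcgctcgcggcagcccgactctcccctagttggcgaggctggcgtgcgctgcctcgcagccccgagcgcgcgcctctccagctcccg
Fads2: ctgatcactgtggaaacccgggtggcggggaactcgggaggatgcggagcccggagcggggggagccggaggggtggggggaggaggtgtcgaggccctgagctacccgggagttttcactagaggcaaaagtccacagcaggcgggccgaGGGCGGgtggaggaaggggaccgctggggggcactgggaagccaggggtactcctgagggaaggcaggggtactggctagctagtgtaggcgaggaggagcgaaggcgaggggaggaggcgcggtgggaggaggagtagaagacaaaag
Elovl5: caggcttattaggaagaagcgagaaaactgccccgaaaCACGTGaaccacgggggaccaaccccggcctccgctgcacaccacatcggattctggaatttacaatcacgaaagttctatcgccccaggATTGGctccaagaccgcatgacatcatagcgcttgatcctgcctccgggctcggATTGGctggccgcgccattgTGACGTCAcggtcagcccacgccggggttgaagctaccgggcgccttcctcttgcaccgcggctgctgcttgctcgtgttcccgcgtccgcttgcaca
Elovl2: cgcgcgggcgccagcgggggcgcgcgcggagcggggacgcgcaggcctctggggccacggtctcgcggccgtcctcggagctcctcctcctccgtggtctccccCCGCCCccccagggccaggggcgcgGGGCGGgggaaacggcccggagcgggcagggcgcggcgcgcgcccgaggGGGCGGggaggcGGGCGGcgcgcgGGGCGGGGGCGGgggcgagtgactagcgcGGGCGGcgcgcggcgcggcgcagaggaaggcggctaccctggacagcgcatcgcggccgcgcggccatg

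The 4 windows differed in makeup. Their GC content was 74.3% for Fads1, 67.3% for Fads2, 60.3% for Elovl5 and 84.7% for Elovl2, against a median of 51.7% over 33469 rat promoters of the same length. The first Elovl2 window held 7 GC boxes, Fads1 and Fads2 held 1 each and Elovl5 held none, while 33.1% of all promoters held at least 1. The second Elovl2 entry, chr17:23750333-23750632 (plus strand), was 78.3% GC and held 1 GC box. The Fads1 window had a CCAAT box that began 121 bases before the start. Elovl5 had 2 CCAAT boxes on the other strand, at 122 and 68 bases before the start, an E-box at 212 and a cyclic AMP response element at 48. Among all promoters, 37.5% held a CCAAT box, 6.42% the E-box and 1.83% that cyclic AMP response element. None of the windows held the sterol element (1.12% of promoters) or either direct repeat (0.0538% and 0.00598%). These are matches of letters only, and no match says nothing about a factor that reads other letters or binds elsewhere.

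The tissue label was checked against hepatocyte markers: all 12 genes of the hepatocyte list were measured and all 12 lay above the median probe set. Array medians ran from 4.432 to 4.616 and array SDs from 2.075 (dairy replicate 3) to 2.333, with casein replicate 4 next lowest at 2.138. Across arrays the values were as alike between diets (median r 0.969) as within them (0.967). Nothing in the labels says whether the 4 samples of a diet came from separate cages or days, so p-values measure the spread between these livers. The small number of arrays limits the precision.

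Fads2, the first desaturase of the pathway, had log2 signals of 12.09, 12.30, 10.62 and 10.65 in leucine livers, 12.51, 11.18, 11.48 and 9.36 in dairy livers, and 12.02, 12.77, 11.72 and 11.05 in casein livers. The highest liver was casein replicate 2 and the lowest was dairy replicate 4, and the 3 diets overlapped. Mean signals were 11.42 ± 0.903 in leucine, 11.13 ± 1.31 in dairy and 11.89 ± 0.713 in casein livers (SD, n = 4 each).

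Fads1, the later desaturase, had log2 signals of 11.29, 11.69, 10.56 and 9.84 in leucine livers, 11.95, 10.80, 10.73 and 9.02 in dairy livers, and 11.45, 12.10, 11.21 and 10.60 in casein livers. The same livers stood at the ends, casein replicate 2 at the top and dairy replicate 4 at the bottom, while dairy replicate 1 was the second highest of the 12 for both desaturases. The means were 10.85 ± 0.816 in leucine, 10.62 ± 1.21 in dairy and 11.34 ± 0.619 in casein livers (SD, n = 4 each).

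Elovl5, the elongase between the desaturation steps, had log2 signals of 10.94, 10.86, 10.45 and 10.39 in leucine livers, 11.08, 9.64, 9.72 and 9.28 in dairy livers, and 11.27, 11.53, 10.14 and 9.93 in casein livers. In the dairy diet 3 livers lay below every casein liver and the fourth, replicate 1, lay among the highest of all diets. The leucine livers kept close together, with a mean of 10.66 ± 0.282, against 9.93 ± 0.788 in dairy and 10.72 ± 0.799 in casein livers (SD, n = 4 each).

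Elovl2, the elongase of the longest chains, had log2 signals of 8.29, 7.81, 7.33 and 7.24 in leucine livers, 7.84, 5.86, 6.74 and 6.63 in dairy livers, and 8.50, 8.61, 7.33 and 7.13 in casein livers. As for Elovl5, 3 dairy livers lay below every casein liver and dairy replicate 1 did not. Here dairy replicate 2 was the lowest liver, and casein replicate 2 was again the highest. The means were 7.66 ± 0.486 in leucine, 6.77 ± 0.816 in dairy and 7.89 ± 0.771 in casein livers (SD, n = 4 each).

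**Figure D1:**
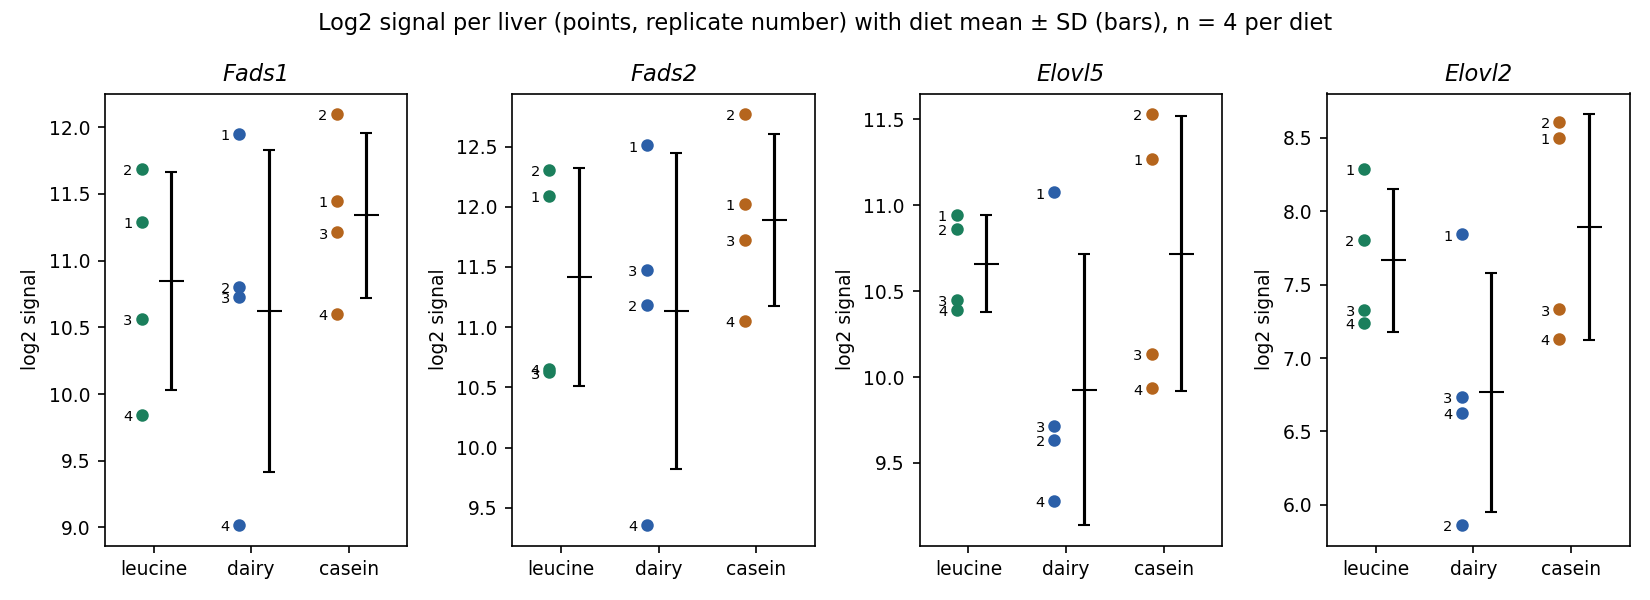
Log2 signal of Fads1, Fads2, Elovl5 and Elovl2 in each of 12 livers (points) with the diet mean and SD (n = 4 each), for leucine, dairy and casein diets from left to right. The diets overlap for every gene, and the 3 lower dairy livers for Elovl2 (5.86 to 6.74) lie below all casein livers.

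The dairy diet, with skim milk powder, was set against casein, the control. All 4 genes had a lower mean in dairy livers, where 53.1% of all probe sets were lower, and 0 of 4 passed the threshold of 0.05 on the adjusted p (limma, Benjamini-Hochberg over 15310 probe sets), while 0.0849% of all probe sets passed it. The lower mean of Elovl2 was the largest, a log2 difference of -1.13 (SE 0.437, 95% interval -2.07 to -0.18), or 2.18-fold, with an unadjusted p of 0.0236 and an adjusted p of 0.387 in limma. It was the only one of the 4 with an unadjusted p under 0.05 and a lower mean, which 6.32% of all probe sets had, and 6.10% of probe sets had a smaller p. Elovl5 differed by -0.79 (SE 0.415, 95% interval -1.69 to 0.11, limma adjusted p 0.503). The desaturases differed by -0.72 for Fads1 (SE 0.559, 95% interval -1.93 to 0.50, limma adjusted p 0.659) and -0.76 for Fads2 (SE 0.615, 95% interval -2.09 to 0.57, limma adjusted p 0.676).

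The median of the 4 differences was -0.775, against -0.0224 over all 15310 probe sets. Exact two-sided permutation tests over the livers gave p = 0.143 for Elovl2, 0.171 for Elovl5, 0.371 for Fads2 and 0.400 for Fads1, where 4 livers against 4 cannot go below 0.0286. For none of the 4 genes did the groups separate fully, as they did for 4.27% of all probe sets. An unadjusted p under 0.05 in either direction was found for 10.9% of probe sets. A fit that weighted each array by how well it followed the others (limma's array weights) put Elovl2 at -1.93 (adjusted p 0.0191) and Elovl5 at -1.42 (adjusted p 0.0302) and so called both, among 1182 called of 15310 probe sets. Leaving out single livers moved the Fads1 difference between -1.16 (without dairy replicate 1) and -0.18 (without dairy replicate 4), and that of Fads2 between -1.22 and -0.17 with the same 2 livers. Dairy replicate 1 also gave the lowest values of the elongases when left out, -1.17 for Elovl5 and -1.48 for Elovl2. Their highest values were -0.52 for Elovl5, when casein replicate 2 was left out, and -0.82 for Elovl2, when dairy replicate 2 was.

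Marker lists were set beside this comparison, and none of the genes given here passed the threshold. Of the 12 hepatocyte markers 11 had a lower mean in dairy livers, and their mean log2 signal was 12.17 to 12.60 in dairy and 12.54 to 12.83 in casein livers. All 14 measured acute phase genes and all 8 neutrophil markers had a higher mean in dairy livers, with median differences of 0.289 and 0.752. The 5 measured erythroid markers, of 7 listed, averaged 6.26 to 6.73 in dairy and 5.76 to 6.23 in casein livers, without overlap, and 3 of the 5 lay above the median probe set. The part of these lists in the differences was not tested. In whole liver, fewer cells of a type and less RNA per cell cannot be told apart.

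The leucine diet, in which leucine took the place of part of the casein, was then set against casein alone. All 4 genes again had lower means, where 56.2% of all probe sets were lower, but by small amounts, and 0 of 4 passed (0% of all probe sets in limma). No gene of the 4 had an unadjusted p under 0.05, which 3.31% of probe sets had, and the groups overlapped for all 4, while they did not for 2.44% of probe sets. Fads1 differed by -0.49 (95% interval -1.71 to 0.72), Fads2 by -0.47 (-1.81 to 0.86), Elovl2 by -0.23 (-1.18 to 0.72) and Elovl5 by -0.06 (-0.957 to 0.843), with limma adjusted p-values of 0.999 for all 4. The median of the 4 was -0.351, against -0.0288 over all probe sets. For all 4 genes the interval includes the difference measured in dairy against casein. Elovl5 changed sign with 4 of the single livers left out: it was -0.318 without casein replicate 4 but 0.214 once casein replicate 2 was dropped. Elovl2 changed sign with 1 of them, to 0.0114 without casein replicate 2.

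Leucine and casein livers of the same replicate number deviated together. This pairing was read from these data and is not stated in the labels, so tests on it are descriptions only. Taken in those pairs, Fads1 was lower in the leucine liver in 4 of 4 pairs, by differences of -0.16, -0.41, -0.65 and -0.76, with an exact two-sided sign-flip p of 0.125, the smallest that 4 pairs allow. Fads2 was lower in 3 of 4 pairs, Elovl2 in 3 of 4 and Elovl5 in 2 of 4. A limma fit on these 8 arrays with the number as a replicate block, added after seeing the data, gave adjusted p-values of 0.826 for Fads1 (unadjusted p 0.0159), 0.844 for Fads2 (unadjusted p 0.0472), 0.951 for Elovl2 and 0.995 for Elovl5, and called 1 of 15310 probe sets, against 0 without the block. The share of all probe sets with such unadjusted p-values, or lower in 4 of 4 pairs, is not given here. These values therefore show nothing particular to the 4 genes.

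In leucine livers 11 of 12 hepatocyte markers had a lower mean than in casein livers, and the list averaged 12.37 to 12.71 in leucine and 12.54 to 12.83 in casein livers. Of the acute phase genes 11 of 14 had a higher mean in leucine livers, as had 7 of 8 neutrophil markers and all 5 measured erythroid markers, which averaged 5.995 to 8.13 in leucine and 5.76 to 6.23 in casein livers. The median difference of the erythroid markers was 0.695, and 2 of the 5 had an unadjusted p under 0.05 in limma, but no gene of these lists passed the threshold. Their part in the differences of the 4 genes was not tested.

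Leucine against dairy gave higher means in leucine livers for all 4 genes, where 48% of all probe sets were higher, and again 0 of 4 passed (0% of all probe sets in limma). Again no gene of the 4 had an unadjusted p under 0.05, which 6.95% of probe sets had, and the groups overlapped for all 4, while they did not for 5.09% of probe sets. Elovl2 was higher by 0.90 (SE 0.437, limma adjusted p 0.723) and Elovl5 by 0.73 (SE 0.415, limma adjusted p 0.742), each with an exact permutation p of 0.143. The desaturases lay closer together, at 0.22 for Fads1 (SE 0.559, limma adjusted p 0.941) and 0.29 for Fads2 (SE 0.615, limma adjusted p 0.930). The median was 0.510, against -0.0113 over all probe sets. Without dairy replicate 4, Fads1 stood at -0.315 and Fads2 at -0.306, so their direction rested on that liver, and without leucine replicate 2 they were also slightly below 0. These comparisons share livers, and so are not independent of those against casein. A moderated F test for any difference between the 3 diets gave limma adjusted p-values of 0.648 for Elovl2, 0.756 for Elovl5, 0.883 for Fads1 and 0.895 for Fads2, with 0.0327% of all probe sets called.

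**Figure D2:**
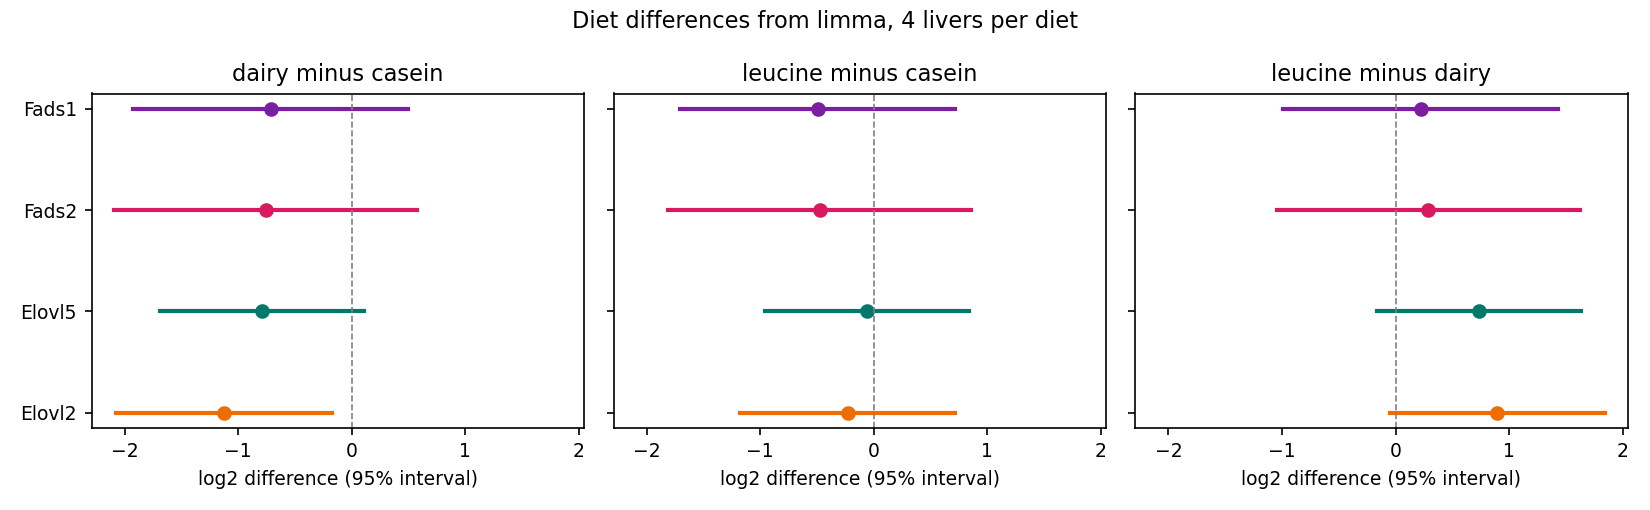
Log2 differences between diets for the 4 genes with 95% limma intervals, with a panel each, from left to right, for dairy against casein, leucine against casein and leucine against dairy. All intervals except that of Elovl2 in dairy against casein (-2.07 to -0.18) cross 0.

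These genes varied widely between livers of the same diet. The SD within diets was 0.914 for Fads1, 1.01 for Fads2, 0.668 for Elovl5 and 0.706 for Elovl2, against a median of 0.295 over all probe sets. The SD of the log2 signal over the 12 livers was 0.884 for Fads1, 0.969 for Fads2, 0.712 for Elovl5 and 0.816 for Elovl2, where the median probe set had 0.305. These SDs over 12 livers lay above those of 97.1%, 97.7%, 94.4% and 96.3% of probe sets. The genes were also bright, with mean signals above those of 98.5%, 99.1%, 97.7% and 79.5% of probe sets. Their spread was not compared with that of probe sets of like signal. Across diets, the highest liver exceeded the lowest 8.46-fold for Fads1, 10.7-fold for Fads2, 4.76-fold for Elovl5 and 6.72-fold for Elovl2. Diet accounted for 12.5% of the variance of Fads1, 11.4% of that of Fads2, 27.9% of that of Elovl5 and 38.7% of that of Elovl2, where the median probe set had 16.7%.

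**Figure D3:**
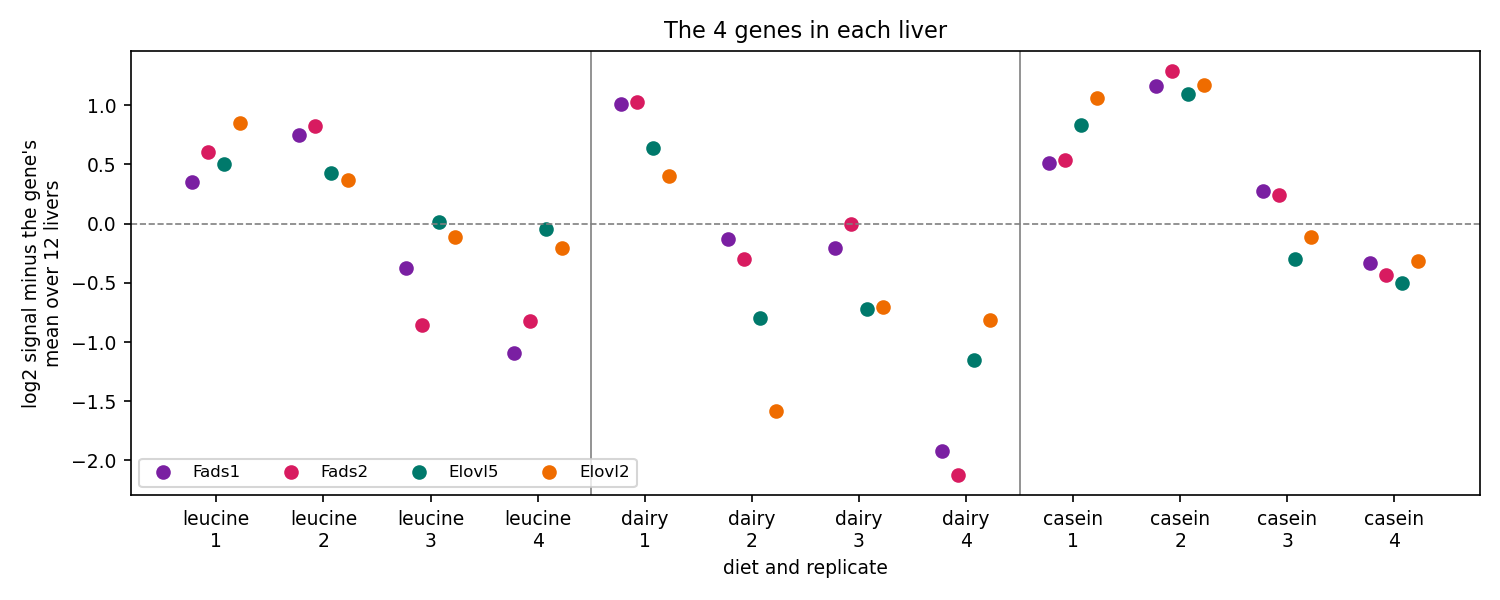
Log2 signal of each gene in the 12 livers, minus the gene's mean over all livers, with livers grouped by diet in the order leucine, dairy, casein. The 4 genes are highest in casein replicate 2, and 3 of the 4 are lowest in dairy replicate 4. They mostly vary in the same direction, but desaturases and elongases part in some livers. In casein replicate 3, Fads1 (0.28) and Fads2 (0.24) lie above their means, and Elovl5 (-0.30) and Elovl2 (-0.11) below.

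The 4 genes varied together. All 6 pairs correlated over the 12 livers with an adjusted p under 0.05 (permutation tests, adjusted over the 6 pairs). The neighbouring desaturases were closest: Fads1 and Fads2 gave r = 0.977 (permutation p = 1e-05, the smallest that 100000 resamples can give, adjusted p 6e-05) and rho = 0.979. Once diet means were removed r was 0.974, and without the 2 livers farthest from the median it was 0.964. Over 7132 other genes, Fads2 had the highest r with Fads1 and Fads1 the highest with Fads2. Their difference of log2 signals had an SD of 0.217, below the SD of either gene alone (0.884 and 0.969).

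The elongases were the other close pair. Elovl5 and Elovl2 gave r = 0.925 (permutation p = 3e-05, adjusted p 9e-05), rho = 0.965, r = 0.902 with diet means removed and 0.922 without the 2 farthest livers. The SD of their difference was 0.312. Among 7132 other genes ranked by r, Elovl2 was number 25 for Elovl5, and Elovl5 was number 24 for Elovl2. Correlations between a desaturase and an elongase were lower: Fads2 with Elovl5 r = 0.796 (rho 0.755), Fads1 with Elovl5 0.787 (rho 0.769), Fads2 with Elovl2 0.677 (rho 0.776) and Fads1 with Elovl2 0.648 (rho 0.776). Their adjusted permutation p-values were 0.0027 for both pairs with Elovl5, 0.0183 for Fads2 with Elovl2 and 0.0219 for Fads1 with Elovl2. Without the 2 farthest livers these 4 correlations were 0.617, 0.833, 0.577 and 0.713. Leaving out casein replicate 2, the highest liver, put Fads1 with Elovl2 at 0.568 (adjusted p 0.0688) and Fads2 with Elovl2 at 0.602 (adjusted p 0.0601), so those pairs no longer passed. Many other genes followed each member more closely than these. By r with Fads1, Elovl5 ranked 267 and Elovl2 812 of 7132 genes, and with Fads2 they ranked 304 and 774. By r with Elovl5, Fads1 ranked 482 and Fads2 447, and with Elovl2 they ranked 1289 and 1091. Whether the correlations differ from each other was not tested.

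**Figure D4:**
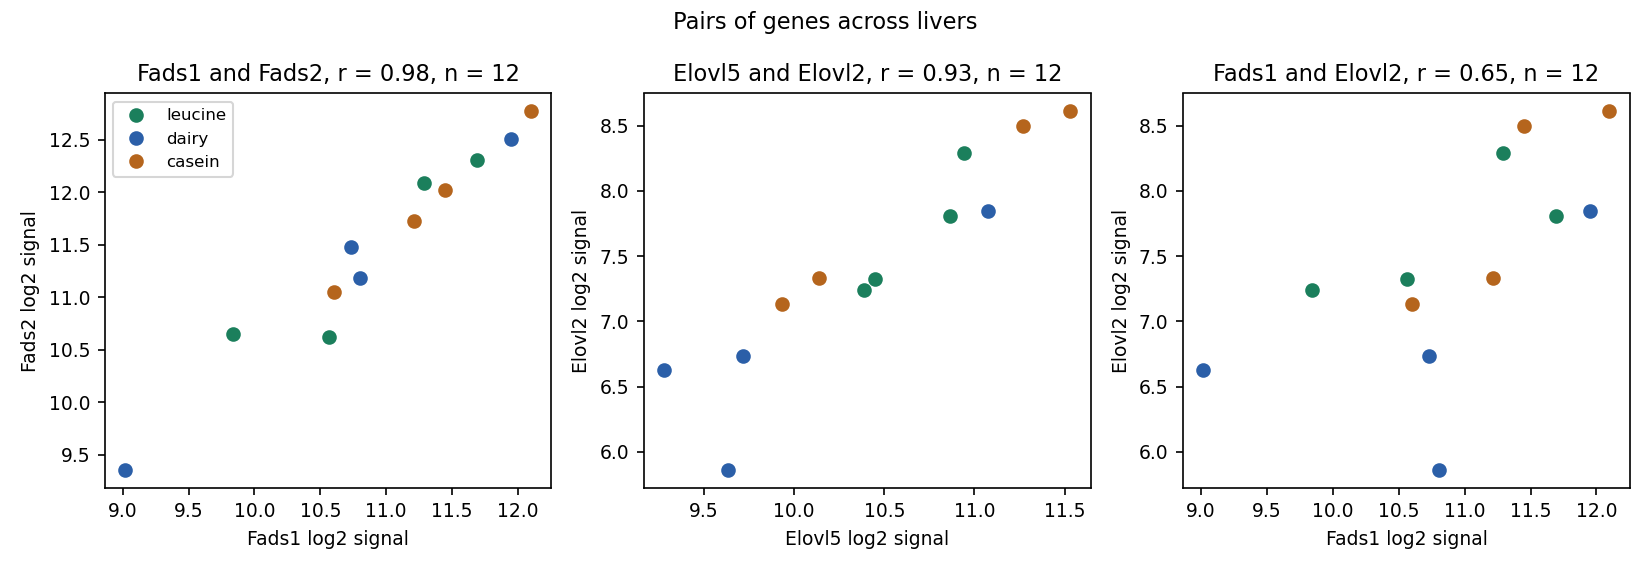
Log2 signals of Fads2 against Fads1, Elovl2 against Elovl5 and Elovl2 against Fads1, 1 point per liver, coloured by diet (leucine, dairy, casein). The first 2 panels lie close to a line (r = 0.977 and r = 0.925, n = 12) and the points of the third scatter more widely (r = 0.648). The 3 lowest Elovl2 signals are in dairy livers.

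The genes with the closest patterns were picked by Pearson r over the 12 livers from 7129 other genes with a mean above the median probe set, and are descriptions with no test. Fads1 was most like Entpd5 (r = 0.944), Acacb, the mitochondrial acetyl-CoA carboxylase (0.944), Sema4g (0.942), Aco1 (0.936) and Tmem63a (0.931). Fads2 was most like Sema4g (0.956), Vamp5 (0.956), Entpd5 (0.955), Faah, which hydrolyses fatty acid amides (0.950), and Mtarc1 (0.948). Elovl5 was most like Cyp39a1, an oxysterol hydroxylase of bile acid synthesis (0.969), Slc10a1, the bile acid uptake carrier (0.966), Fbxo3 (0.964), Kynu (0.951) and Snx24 (0.947). Elovl2 was most like Acadm, the medium-chain acyl-CoA dehydrogenase (0.974), Rbp4, the plasma retinol carrier (0.965), Sptssa (0.964), Slc27a2, a very long-chain acyl-CoA synthetase (0.959), and Snx24 (0.947). The desaturases shared 2 of their 5 genes, the elongases shared 1 of 5, and a desaturase and an elongase shared none.

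Markers of other cells and states were set beside these patterns. Over the 12 livers 56 relations of the 4 genes were computed, 40 with list means, 12 with the regulators described below and 4 with the SD of the array, and adjusted p-values are over all 56. The 8 with the neutrophil and endothelial lists are given apart, further below, because on those lists the livers were split at the largest gap. Of the other 48, 3 passed by both r and rho, 2 by r only and 1 by rho only. The share of other genes that correlate as strongly with these lists or regulators is not given here. None of these relations is therefore shown to be particular to the 4 genes. Elovl2 correlated with the hepatocyte markers (r = 0.880 over 12 livers, adjusted permutation p 0.0123; rho 0.888, adjusted 0.0174), and so did Elovl5 (r = 0.83, adjusted 0.0174; rho 0.832, adjusted 0.0378). With the same list r was 0.584 for Fads1 (adjusted p 0.122) and 0.608 for Fads2 (adjusted p 0.108), neither past the threshold. Without the 2 livers farthest from the median of the list, r was 0.893 for Elovl2, 0.795 for Elovl5, 0.741 for Fads1 and 0.808 for Fads2. Whether these correlations differ between the genes was not tested. Hnf4a is in the hepatocyte list and in the regulator list, and Fgb is in the hepatocyte and acute phase lists.

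Acute phase genes, plasma proteins and signals that the liver raises in inflammation, ran the other way. The 14 measured of 15 listed genes averaged log2 signals of 9.90 to 12.03 in leucine, 10.81 to 12.26 in dairy and 9.64 to 11.82 in casein livers. Their mean correlated with Fads2 (r = -0.720, adjusted permutation p 0.0441; rho -0.755, adjusted 0.048), with r = -0.681 without the 2 farthest livers. It correlated with Elovl2 at r = -0.731 (adjusted 0.0421), but the rho of -0.706 did not pass (adjusted 0.0556), and r was -0.548 without the 2 farthest livers. For Elovl5 r was -0.683 (adjusted 0.0638) and for Fads1 -0.640 (adjusted 0.0892), neither past the threshold. The acute phase means also had a gap, from 9.90 (leucine replicate 1) to 10.81 (dairy replicate 3), and the livers were not split there. The relation that passed by rho only was that of Fads1 with the adipocyte markers (rho -0.741, adjusted permutation p 0.0498; r -0.662, adjusted 0.0704). All 6 adipocyte markers were measured and none of them lay above the median probe set.

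Neutrophil markers fell into separate clusters of livers, 7 with mean log2 signals of 3.47 to 4.42 and 5 with 5.37 to 6.35. Pooled over the 12 livers, r was -0.802 for Fads2 (adjusted permutation p 0.0174) and -0.738 for Elovl2 (adjusted 0.0421). It was -0.732 for Elovl5 (adjusted 0.0473) and -0.725 for Fads1 (adjusted 0.0421, by rho 0.0556). Such pooled values mix the difference between clusters with the relation inside them. The ranges by diet were 3.47 to 5.96 in leucine, 3.90 to 6.35 in dairy and 3.52 to 5.76 in casein livers, all 8 listed genes were measured, and 3 of the 8 lay above the median probe set. Elovl2 ranged from 5.86 to 7.33 in the 5 livers and from 6.74 to 8.61 in the 7. Within the 7 livers r was -0.832 for Elovl2 (exact p = 0.022, adjusted 0.264 over 12 relations), -0.745 for Elovl5, -0.577 for Fads2 and -0.499 for Fads1. The 5 measured endothelial markers also split the livers, and within those clusters no relation passed (adjusted p from 0.483 to 0.943). Pooled over the 12 livers, r with these markers was 0.833 for Elovl5 and 0.823 for Elovl2 (adjusted permutation p 0.0186 and 0.0174). It was 0.625 for Fads2 and 0.553 for Fads1, neither past the threshold (adjusted 0.0926 and 0.139). The part of hepatocyte, acute phase or neutrophil signal in the differences between diets and livers was not tested.

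**Figure D5:**
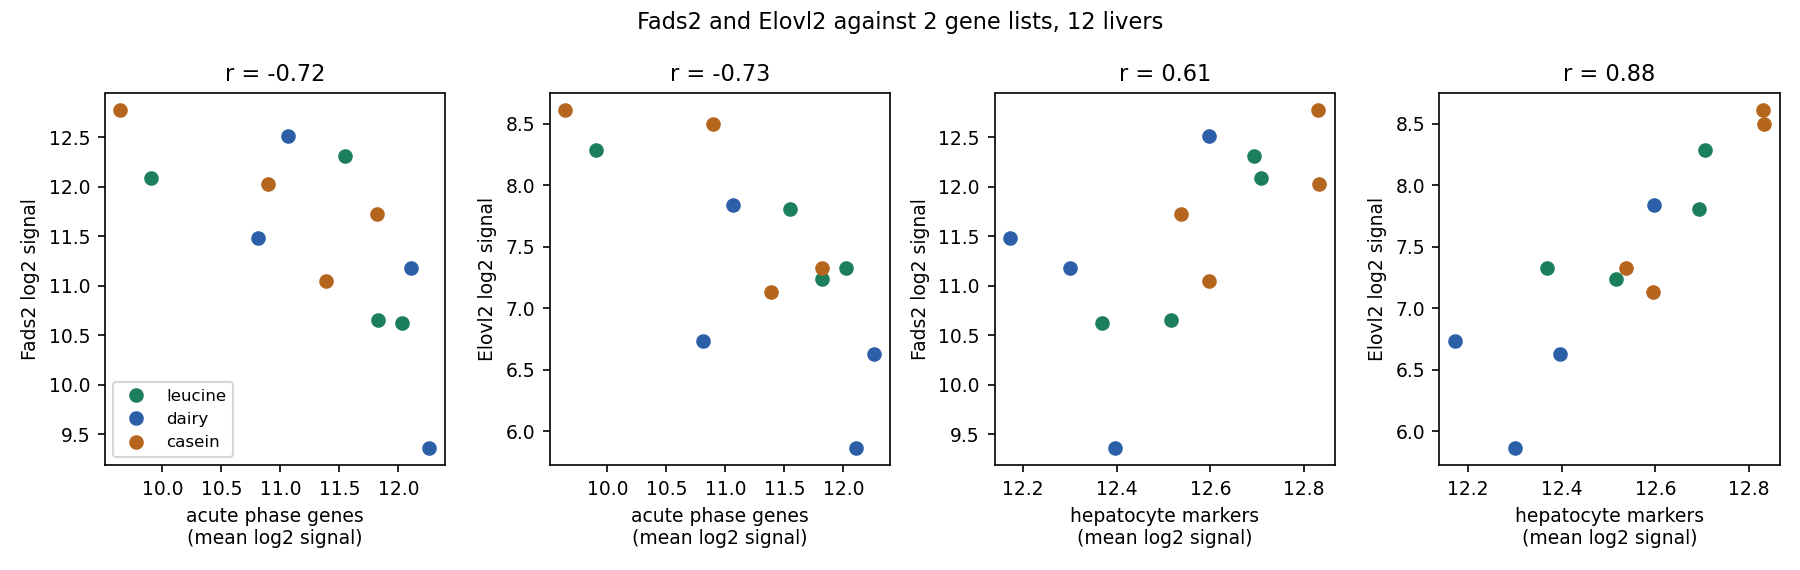
Log2 signal of Fads2 and of Elovl2 against the mean log2 signal of the acute phase genes and of the hepatocyte markers, 1 point per liver, marked by diet. Elovl2 rises with the hepatocyte markers (r = 0.880) and both genes fall as the acute phase genes rise (r = -0.720 and -0.731).

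Regulators of these genes were examined with 15 of 17 measured, and Srebf1 was not analysed here. Insig1, which holds the SREBP precursors back, averaged 11.52 ± 0.415 in leucine, 10.74 ± 0.938 in dairy and 10.81 ± 0.325 in casein livers (SD, n = 4 each), with differences of 0.71 in leucine against casein (limma adjusted p 0.999) and 0.776 in leucine against dairy (limma adjusted p 0.73). Its correlations with the 4 genes ran from -0.034 to 0.352. These Insig1 values are from the brighter of its 2 probe sets, and the other is not given here. Ppara averaged 8.23 ± 1.06 in leucine, 7.67 ± 1.25 in dairy and 7.99 ± 0.809 in casein livers (SD, n = 4 each), and Nr1h3, the liver X receptor alpha that raises Srebf1, averaged 8.88 ± 0.277 in leucine, 8.78 ± 0.364 in dairy and 9.20 ± 0.404 in casein livers (SD, n = 4 each). No comparison of either passed. Ppara correlated with Elovl2 (r = 0.756, adjusted permutation p 0.0421), but rho was 0.594 (adjusted 0.119). With diet means removed r was 0.836, and without the 2 farthest livers it was 0.530. Nr1h3 correlated with the 4 genes between 0.261 and 0.436, none past the threshold. No regulator passed in any comparison, and the leading ones in dairy against casein, by unadjusted p, were Mbtps2, a protease that releases SREBP, at -0.495 (adjusted 0.478), Srebf2 at 0.502 (adjusted 0.497) and Nr1h2, the liver X receptor beta, at 0.465 (adjusted 0.511). In leucine against casein Hnf4a stood at -0.452 and Nr1h3 at -0.321, and in leucine against dairy Srebf2 stood at -0.371 and Nr1h2 at -0.360.

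The enzymes around the pathway were counted on lists. None of the 5 lists had a gene past the threshold in any comparison, with 0.0849% of all probe sets past it in dairy against casein and 0% in both leucine comparisons. Of 12 measured partners (of 18 listed: other desaturases and elongases, and the reductases, dehydratases and cytochromes that serve them), 6 had a higher and 6 a lower mean in dairy than in casein livers, with a median difference of -0.0177. Hsd17b12, the ketoreductase of the elongation cycle, was the first by p (-0.485, adjusted 0.427), followed by the reductase Tecr (-0.517, adjusted 0.463) and the electron donor Cyb5r3 (-0.546, adjusted 0.557). In leucine against casein 10 of 12 were lower (median -0.106), and Cyb5a, which passes electrons to the desaturases, stood at 0.537 (adjusted 0.999), with Tecr at -0.330 and Scd2, a stearoyl-CoA desaturase, at -0.215. In leucine against dairy the lowest p was that of Scd2 (-0.510, adjusted 0.657), where dairy replicate 1 stood above the other dairy livers, followed by Fads3 at -0.303 (adjusted 0.730) and Hsd17b12 at 0.342.

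Peroxisomal chain shortening, which makes docosahexaenoic acid from the longer product of Elovl2, had 10 of 14 genes measured. In dairy against casein 8 of 10 had a lower mean (median -0.280). Ehhadh, a bifunctional enzyme, stood at -1.06 (adjusted 0.237), with means of 10.25 ± 0.495 in dairy and 11.31 ± 0.251 in casein livers (SD, n = 4 each). The thiolase Scp2 stood at -0.538 and the import factor Pex19 at -0.398. In leucine against casein 9 of 10 were lower (median -0.163), with Ehhadh at -0.388 (adjusted 0.999), Scp2 at -0.232 and the oxidase Acox3 at -0.223. In leucine against dairy the median was 0.217, with Ehhadh at 0.674 (adjusted 0.693), Pex19 at 0.307 and Scp2 at 0.305.

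Activation of fatty acids and their entry into phospholipid had 19 of 22 genes measured. In dairy against casein 14 of 19 had a lower mean, with a median of -0.432, against -0.0224 over all probe sets. Acsl4, an acyl-CoA synthetase that prefers arachidonic acid, stood at 8.82 ± 0.189 in dairy and 9.39 ± 0.207 in casein livers (SD, n = 4 each), a difference of -0.567 (limma adjusted p 0.228). Chpt1, which makes phosphatidylcholine, differed by -0.738 (adjusted 0.44), and Pcyt1a, the rate-setting enzyme of that route, by -0.467 (adjusted 0.46). In leucine against casein 12 of 19 were lower (median -0.0798), with the lysophospholipid acyltransferase Lpcat1 at -0.552 (adjusted 0.999), Lpcat4 at -0.214 and Acsl4 at 0.151. In leucine against dairy 14 of 19 were higher (median 0.353), and Acsl4 had 9.54 ± 0.136 in leucine and 8.82 ± 0.189 in dairy livers (SD, n = 4 each), a difference of 0.718 with an unadjusted p of 3.88e-04 and an adjusted p of 0.604 in limma. Chpt1 stood at 0.742 and Lpgat1, a lysophosphatidylglycerol acyltransferase, at 0.552, both with an adjusted p of 0.708.

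Release and oxygenation, the step from membrane fatty acid to prostaglandins, leukotrienes and epoxides, had 21 of 22 genes measured. In dairy against casein 12 of 21 were lower (median -0.0124), with Cyp2j4, an epoxygenase of arachidonic acid, at -1.23 (adjusted 0.295) and Cyp4f4, a hydroxylase of it, at -0.812 (adjusted 0.504), while the cyclooxygenase Ptgs1 stood at 0.284 (adjusted 0.529). In leucine against casein the median was -0.0073, and Alox15, a lipoxygenase, stood at 1.16 (adjusted 0.999), of which 1 liver, leucine replicate 3 at 8.63, carried most: the difference was 0.176 without it. The phospholipases Pla2g12a and Pla2g15 stood at 0.571 and -0.446. In leucine against dairy the median was 0.160, with Cyp2j4 at 1.06 (adjusted 0.657), Ptgs1 at -0.462 (adjusted 0.657) and Cyp4f4 at 0.779 (adjusted 0.738).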

How the data were processed

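The authors deposited log2 signals, 1 for each probe set on each array. The submitters' processing notes name Affymetrix Expression Console as the program. Its version, its algorithm and the build used are not stated there. Array spreads differ, and a log2 difference understates the change of genes near background.

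Of 29214 probe sets, 15310 carried 1 symbol, 323 several and 13581 were not listed in the platform annotation. Diets came from the labels. limma 3.58.1 in R 4.3.3 (lmFit on 3 diet means over 12 arrays, eBayes, 9 residual degrees of freedom) gave two-sided p-values, adjusted by Benjamini-Hochberg over 15310 probe sets. Correlations over livers used 100000 permutations, and single differences exact ones. The fit was tested on simulated data. The genes, lists and tests were chosen with earlier results of these data known. Named genes were the 4 genes, for each list and comparison the genes that passed, or failing any the 3 of lowest unadjusted p, the 5 most alike genes, and Srebf1, Insig1, Ppara and Nr1h3. Replicate numbers were examined as pairs by correlating same-numbered arrays' deviations from their diet means. Leucine and casein arrays correlated over 0.1 in all 4 numbers (r from 0.208 to 0.532). This is a pairing found in the data and not stated in the labels. Only 2 of 12 arrays had their best match in another diet under their own number. Alternatives are in the closing section. Promoters are RefSeq's, build GRCr8.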

Additional observations from a re-analysis of the deposited data

Results flagged for a closer look

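In 4 of 99 groups of 4 livers examined, 1 liver stood apart from the other 3 beyond Dixon's 95% value, and chance alone flags about 1 in 20 groups. None of the 12 groups of Fads1, Fads2, Elovl5 and Elovl2 was among them.

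The Scd2 signal of dairy replicate 1 was 5.93, against 5.23 to 5.31 in the other dairy livers. Acox3 was at 9.72 in dairy replicate 4, against 10.26 to 10.38 in the others. Pcyt1a was at 7.47 in casein replicate 4, one of the arrays of narrow spread, against 6.87 to 6.94 in the others. Alox15 was at 8.63 in leucine replicate 3, against 4.43 to 5.07 in the others.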

How the results depend on the processing

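The 12 differences of the 4 genes between diets were recomputed under 280 combinations with another setting. Of these, 269 kept their direction and their side of the threshold, 9 reversed and 2 newly passed. Several settings left the differences themselves unchanged, so they could not reverse a direction. These were the choices of probe sets tested, trend and robust eBayes, replicate blocks, fits on only the arrays compared, and the exact test. Taking the mean of a gene's probe sets could change neither direction nor call, since no gene here had several. The 269 is therefore no measure of how firmly the directions held. Only array weights brought new calls: Elovl5 at -1.42 (adjusted p 0.0302) and Elovl2 at -1.93 (adjusted p 0.0191) in dairy against casein. So 2 of the 4 genes passed, as did 12 genes of the pathway lists (12, 15, 10, 19 and 21 measured). In that setting 1182 of 15310 probe sets were called. The F test of Elovl2 with array weights had an adjusted p of 0.0461. The highest weights went to dairy replicate 2 (2.83) and casein replicate 2 (2.09), the lowest to casein replicate 4 (0.293) and dairy replicate 3 (0.296). For Elovl2, dairy replicate 2 was the lowest liver (5.86) and casein replicate 2 the highest (8.61). The cause of the new calls was not tested.

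The count of probe sets past the threshold in dairy against casein, 13, became 22 with quantile normalization, 42 over all probe sets in the file, 8 with trend and robust eBayes, 6 with only the 8 arrays compared, 1182 with array weights and 164 when the 2 arrays of narrowest spread were dropped, and ran from 3 to 237 with 1 array left out (237 without casein replicate 4). In leucine against casein it ran from 0 to 2. With single livers left out, the differences ran as follows: in dairy against casein Insig1 from -0.345 to 0.373 and Ppara from -0.751 to 0.240, in leucine against casein Elovl5 from -0.318 to 0.214, Elovl2 from -0.482 to 0.0114, Ppara from -0.191 to 0.562 and Acox3 from -0.353 to 0.0141, and in leucine against dairy Fads1 from -0.315 to 0.662, Fads2 from -0.306 to 0.745 and Nr1h3 from -0.0691 to 0.220. Insig1 in dairy against casein turned to 0.00398 with quantile normalization and to 0.284 without the arrays of narrowest spread, Nr1h3 in leucine against dairy to -0.0691 without those arrays, and Ppara in leucine against casein to -0.110 with array weights. Leaving out single livers, the correlation of Fads1 with Elovl2 ran from 0.568 to 0.782 and that of Fads2 with Elovl2 from 0.602 to 0.784.

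Same-numbered leucine and casein arrays correlated over 0.1 in 4 of 4 pairs (from 0.208 to 0.532). Dairy and casein arrays did so in 1 of 4 (from -0.505 to 0.502) and leucine and dairy arrays in 2 of 4 (from -0.304 to 0.590). The highest of these was leucine with dairy, and only 2 of 12 arrays had their best match in another diet under their own number. With the replicate number as a block over all 12 arrays, the adjusted p of Elovl2 in dairy against casein was 0.255, of Elovl5 0.312, of Fads1 0.399 and of Fads2 0.468. In leucine against dairy these were 0.585, 0.604, 0.885 and 0.880, and in leucine against casein 0.9995 for each. Probe sets past the threshold numbered 19 in dairy against casein, 0 in leucine against casein and 1 in leucine against dairy. A block on the leucine and casein arrays alone, added after seeing the data, called 1 probe set. No replicate block changed a call on the 4 genes. Taking the mean of a gene's probe sets gave the same values, since each gene has 1.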
